A study of Aedes aegypti with 20 samples.

Results

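The male hearing organ was compared with the male head in 10 RNA sequencing libraries of the yellow fever mosquito Aedes aegypti, of 20 in the series. These were the 5 libraries labelled male pedicel and the 5 labelled male head, and no other library entered the main test. The mosquitoes were of the Liverpool strain, a standard laboratory strain, and carried no transgene named in the labels. The males were virgins, were kept in an incubator for 2 days to set their daily rhythm, and were flash-frozen at zeitgeber time 12. All 10 libraries share strain, sex and time. Mosquitoes were collected in groups, and the sources used here state neither their age, nor how many were pooled in a library, nor whether the heads kept their antennae. The deposited table heads the columns of the head libraries with the word brain, and the labels' word head is kept here. The other 10 libraries, 5 pedicels and 5 heads of females that had taken no blood, are given beside the male values where they bear on them.

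The pedicel is the second segment of the antenna and houses Johnston's organ, whose ciliated stretch-sensitive neurons respond to vibrations of the antennal shaft. In mosquitoes this organ is larger in males, which use it to hear the wing-beat tones of flying females. The head, in contrast, holds the brain, the compound eyes, the mouthparts and their muscles, fat body and cuticle. A comparison of pedicel with head therefore sets a sense organ against a mixture of many tissues. Genes are given by the IDs of the deposited table. The RefSeq gene table used here held 0 of the table's 19804 IDs, so no gene is given a name or a role, no sequence is shown, and neither tissue label could be checked against known marker genes.

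The estimated counts of the male libraries summed to between 5059969 and 9404244 per library. Values are given as CPM, normalised read counts per 1e+06 reads after scaling of library sizes by edgeR's TMM method, whose factors ran from 0.47 to 1.24. CPM is not corrected for transcript length, so levels are compared between libraries and not between genes. Male heads resembled each other more than male pedicels did. Spearman correlations across genes ran from 0.954 to 0.986 between heads and from 0.834 to 0.973 between pedicels, and the lowest pedicel value lay between male pedicels 2 and 4. The chi-square per degree of freedom between libraries of the same group was at least 7.6, so none differed by sampling noise alone and each was counted as its own replicate. The labels do not state that replicates are independent collections of mosquitoes, and the p-values therefore reflect library-to-library spread, which may be technical.

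Before the gene results, male pedicel 2 has to be described, because it stood apart from the other 4 male pedicels. For each pedicel, the 50 abundant head genes that were lowest in the other male pedicels were taken, and their level in the library left out was expressed in percent of the male head mean. The median level was 7.11% in male pedicel 1, 35.9% in male pedicel 2, 4.38% in male pedicel 3, 5.94% in male pedicel 4 and 5.69% in male pedicel 5. Male pedicel 2 was thus the high library. With 200 genes in place of 50 it stood at 43.3% and the other 4 at 8.95% to 13.7%. Female pedicels and all heads were measured on head genes chosen as lowest in male pedicels 1, 3, 4 and 5. The female pedicels stood at 36.8% to 73.3% (24.7% to 53.1% with 200 genes), and heads of both sexes at 97.1% to 113%. A choice by male pedicels in itself favours a higher level in female ones, so nothing is read from the difference between the sexes. The mirror measure was the level of the 50 abundant pedicel genes that were lowest in heads. For a male pedicel it was expressed in percent of the mean of the other 4 male pedicels. It gave 53.5% in male pedicel 2 against 102% to 115% in male pedicels 1, 3, 4 and 5. The base of each of those 4 held the low male pedicel 2, which widens the contrast. In male heads these pedicel transcripts stood at 1.32% to 2.10% of the mean of male pedicels 1, 3, 4 and 5. On the same base the female pedicels stood at 21.45% to 40.38%, below male pedicel 2, with genes again chosen from male libraries. Whether male pedicel 2 held head tissue was not tested. Male counts of calls and classes are given with and without it. So are the male folds of the named genes, where both could be tested.

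**Figure D1:**
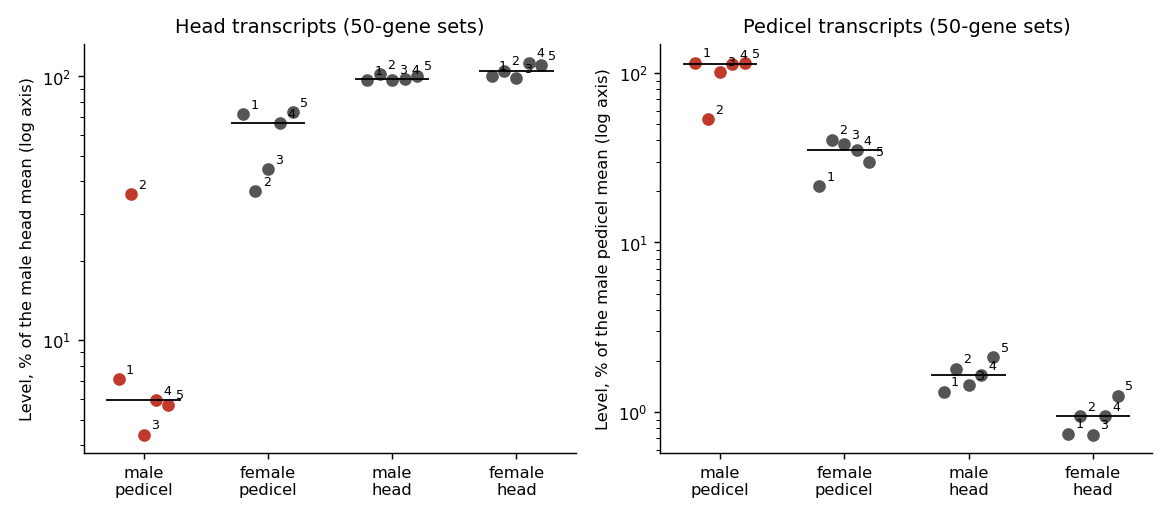
Median level of 50 head genes (left, percent of the male head mean) and of 50 pedicel genes (right, percent of the male pedicel mean) in each of the 20 libraries, on log axes. Points are libraries with their replicate numbers and lines are group medians. Male pedicel 2 stands at 35.9% and 53.5%, away from the other 4 male pedicels at 4.38% to 7.11% and 102% to 115%.

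About as many genes were higher in the male pedicel as in the male head, and most of the differences of 8-fold or more lay on the pedicel's side. Of 10637 genes tested, 5353 (50.3%) differed at an adjusted p under 0.05 (edgeR's quasi-likelihood test with Benjamini-Hochberg adjustment), 2651 (24.9%) with more in the pedicel and 2702 (25.4%) with more in the head. Without male pedicel 2, 5891 of 10787 genes (54.6%) differed, 2827 (26.2%) with more in the pedicel and 3064 (28.4%) with more in the head. Called in the same direction in both fits were 2510 genes on the pedicel's side and 2649 on the head's side, and 0 genes were called in opposite directions. These fits share every library but male pedicel 2, so such agreement is largely built in. In bulk tissue, fewer cells of a type and less RNA per cell cannot be told apart. With library totals in place of TMM, the balance was 1199 higher in the pedicel to 2092 higher in the head, and the median log2 fold of all genes was -0.14 in place of 0.05.

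The size of the differences depended on male pedicel 2 mainly for the genes that were lower in the pedicel. Differences of 4-fold or more in favour of the pedicel were called for 611 genes and in favour of the head for 507. Without male pedicel 2 these counts were 688 and 739. Past 8-fold, 387 genes favoured the pedicel and 88 the head, compared with 429 and 338 once male pedicel 2 was left out. Past 16-fold the split was 242 to 2, and then 264 to 90. Past 64-fold it was 33 to 2, and then 37 to 4. The number of large rises in the pedicel thus changed little, while that of large falls multiplied once 1 of the 10 libraries was removed. The biological coefficient of variation of the fit, a measure of the spread between libraries beyond counting noise, went from 0.292 to 0.235.

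**Figure D2:**
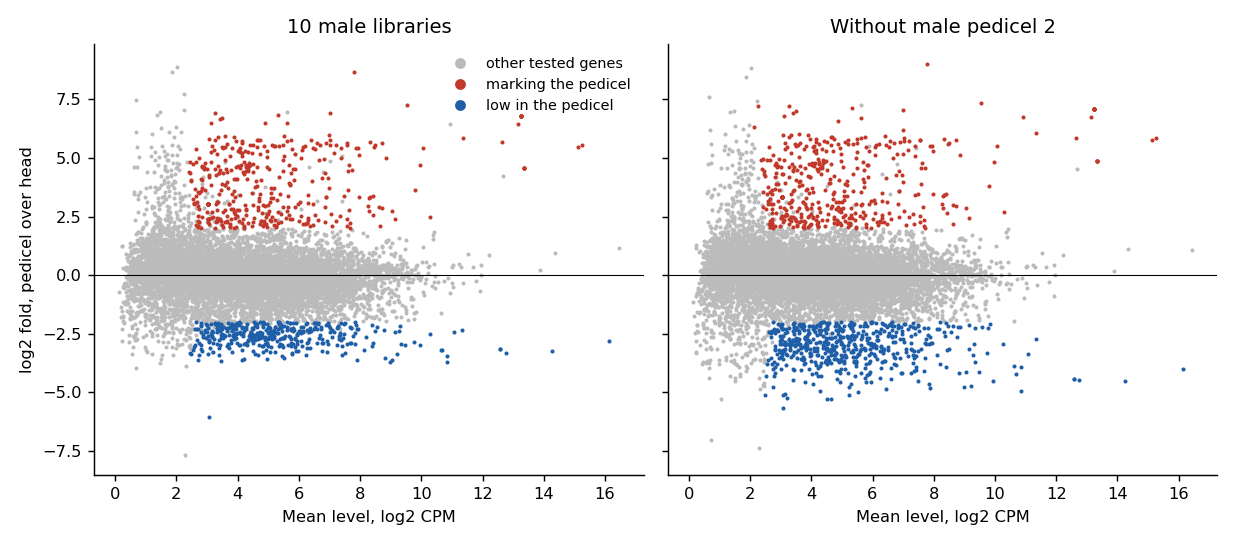
Log2 fold, pedicel over head, of each gene for the fit of 10 male libraries (left) and the fit without male pedicel 2 (right). The horizontal axis gives the log2 of the mean of a gene's pedicel and head CPM, with the same values in both panels. Red genes mark the pedicel and blue genes are low in it by the limits given in the text, and grey genes are the others tested. The red cloud keeps its reach while the blue cloud extends downward in the right panel, where 90 genes in place of 2 are at least 16-fold lower.

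Genes marking the male pedicel were taken as those called higher there 4-fold or more, with a mean of at least 10 CPM in pedicels and with every pedicel library above every head library. There were 394 such genes (3.7% of those tested), and 440 (4.08%) without male pedicel 2, of which 393 were shared. The median log2 fold of the 394, which the 4-fold limit itself keeps high, was 3.61, beside 0.05 over all genes tested. Their median levels were 42.3 CPM in pedicels and 3.31 CPM in heads. In pedicels, 282 of them averaged under 100 CPM, 91 between 100 and 1000 CPM and 21 at or above 1000 CPM. Few were undetected in heads. All 5 heads had counts for 375 of the 394, none of the 394 was without counts in all heads, and 14 averaged under 1% of their pedicel level there.

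For most marking genes the pedicels other than male pedicel 2 lay close together, with wide exceptions. The median standard deviation of their log2 levels was 0.23 over those 4 libraries, for the 440 genes, and 0.38 over all 5, for the 394. Over all genes tested it was 0.26 and 0.31. Single genes ranged more widely, in male pedicel 1 from 2.95% to 364% of the mean of male pedicels 1, 3, 4 and 5, with 17 genes under 10%. Male pedicel 2 was the lowest of the 5 pedicels for 341 of the 394 genes and the highest for 7. Its median level over 437 of the 440 genes, those that were also tested with all libraries, was 59.6% of the mean of the other 4 pedicels. The 440 genes were chosen for being high in those other 4 libraries, so a library outside the choice tends to lie below 100% by the choice alone, and the value is a description.

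The gene rule, which ranked the gap between the nearest libraries of the groups, put 2 IDs first among the genes higher in the pedicel. AAEL020342 stood at 1940, 995, 1350, 1580 and 1490 CPM in male pedicels 1 to 5, and at 6.46, 12.6, 8.12, 10.4 and 10.7 CPM in male heads 1 to 5. All pedicels lay far above all heads, and male pedicel 2 was the lowest pedicel. The mean of 1470 ± 344 CPM in pedicels exceeded that of 9.65 ± 2.38 CPM in heads (SD, n = 5 each) by 7.25 on the log2 scale (SE 0.27, edgeR adjusted p = 2.0e-08), and by 7.36 without male pedicel 2.

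AAEL012720, an ID with 1 transcript in the table like AAEL020342, showed the same separation. It stood at 278, 167, 263, 222 and 341 CPM in male pedicels 1 to 5, and at 1.62, 1.66, 1.18, 3 and 2.72 CPM in male heads 1 to 5. Again the groups did not overlap and male pedicel 2 was the lowest pedicel. The log2 fold was 6.92 (SE 0.30, edgeR adjusted p = 5.9e-08) with all libraries and 7.03 without male pedicel 2.

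Genes low in the male pedicel were defined in mirror image, by a call of 4-fold or more, a mean of at least 10 CPM in heads and every pedicel library below every head library. There were 382 such genes (3.59% of those tested) with all libraries and 553 (5.13%) without male pedicel 2. The 2 sets shared 379 genes, and 174 were found without that library alone. The median log2 fold was -2.55 for the 382 and -2.96 for the 553. Their median levels were 8.93 CPM in pedicels and 55.2 CPM in heads for the 382, and 6.25 and 51.8 CPM for the 553.

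Few of these genes were close to absent from the pedicel. Over male pedicels 1, 3, 4 and 5, the 553 genes averaged between 1.46% and 27% of their head level, with a median of 12.9%. The 4-fold limit sets the upper end of this range. No gene of the 553 (0) averaged under 1%, 42 averaged under 5% and 111 over 20%. Each of the 4 pedicels had counts for 545 of the 553. In male pedicel 2, which played no part in choosing these genes, the median was 44.8% of the head level and 1 gene stood below 10%. In male pedicels 1, 3, 4 and 5 the medians were 11.7%, 10.7%, 12.9% and 14.6%, and 219, 264, 205 and 134 genes stood below 10%. The genes were chosen for being low in these 4 libraries, so part of their distance from male pedicel 2 is fixed by the choice. Among the 382 genes, male pedicel 2 was the highest of the 5 pedicels for 334.

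**Figure D3:**
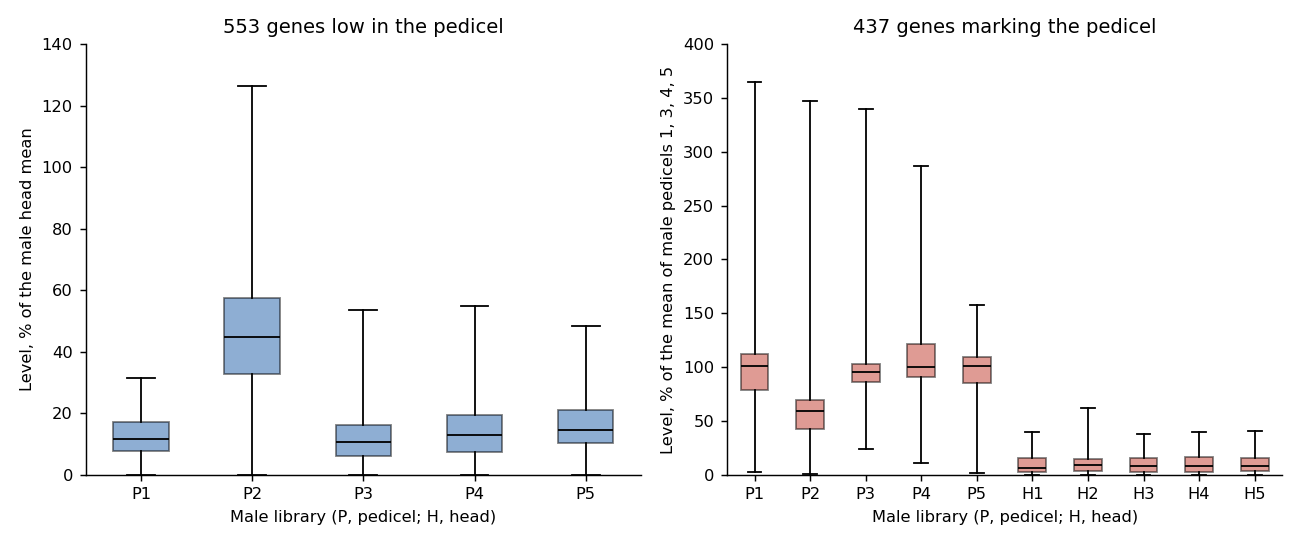
Levels of the genes low in the pedicel (left, 553 genes, percent of the male head mean) and of the genes marking it (right, 437 genes, percent of the mean of male pedicels 1, 3, 4 and 5), both chosen without male pedicel 2. Boxes give the median and quartiles over genes and whiskers the lowest and highest gene. Male pedicel 2 is high on the left, with a median of 44.8%, and low on the right, with 59.6%.

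The gene rule put AAEL018183 and AAEL009615 first among the genes higher in the head. AAEL018183 stood at 3.03, 24.3, 1.99, 1.98 and 3.22 CPM in male pedicels 1 to 5, and at 78.2, 93.7, 82.6, 77.6 and 95 CPM in male heads 1 to 5. The groups did not overlap, and male pedicel 2 lay well above the other 4 pedicels. Its log2 fold was -3.55 (SE 0.66, edgeR adjusted p = 1.3e-03) with all libraries and -4.99 (SE 0.17, adjusted p = 2.3e-09) without male pedicel 2.

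AAEL009615 had nearly the same level in 4 of the pedicels. It stood at 83.2, 785, 74.6, 77.7 and 73.2 CPM in male pedicels 1 to 5, and at 1630, 1820, 1740, 1880 and 1690 CPM in male heads 1 to 5. Male pedicel 2 was again between the other pedicels and the heads. The log2 fold was -3.0 (SE 0.74, edgeR adjusted p = 6.4e-03) with all libraries and -4.51 (SE 0.11, adjusted p = 5.0e-10) without male pedicel 2.

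**Figure D4:**
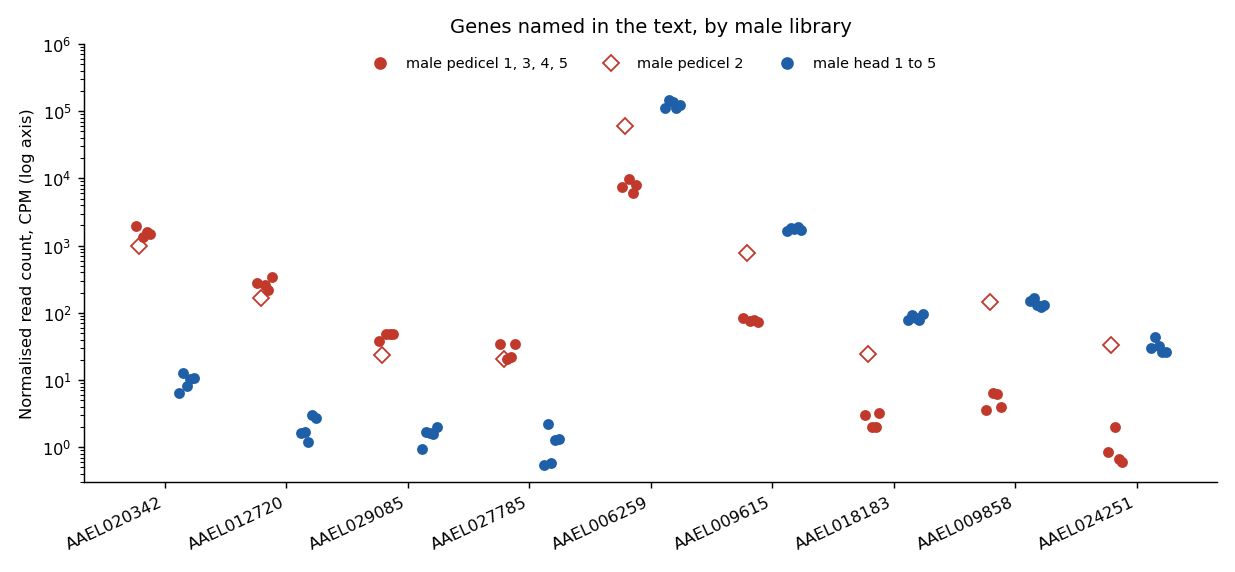
CPM of 9 named genes in each male library, on a log axis. Red points are male pedicels 1, 3, 4 and 5, open red diamonds are male pedicel 2 and blue points are male heads. For the 4 genes at the left, which mark the pedicel, the diamond lies with the other pedicels or just below them. For the 5 genes at the right, which are higher in the head, it lies above them and, for AAEL009858 and AAEL024251, among the heads. The other named genes are not shown. Among those are AAEL008401 and AAEL024981, also higher in the head, where male pedicel 2 lay at or near the other pedicels.

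The called gene that took the most counts differed between the tissues. By mean CPM over the 5 pedicels it was AAEL018689, at 17.7%, 16.9%, 9.02%, 5.37% and 11.3% of the counts of male pedicels 1 to 5, and at 4.55% to 7.34% in male heads. In CPM it stood at 151000, 149000, 115000, 114000 and 90900 in male pedicels 1 to 5, and between 40200 and 68700 in the heads. The groups did not overlap on this scale, and the log2 fold was 1.16 (SE 0.27, edgeR adjusted p = 4.6e-03), or 1.08 without male pedicel 2. The same ID was second among called genes in male heads by mean CPM.

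The called gene with the highest mean CPM in male heads was AAEL006259, at 12.2% to 15.9% of the counts of a head library. It took 0.864%, 6.76%, 0.762%, 0.284% and 0.997% of the counts of male pedicels 1 to 5. In CPM it stood at 7350, 59400, 9700, 6010 and 8050 in male pedicels 1 to 5, and at 113000, 149000, 136000, 111000 and 124000 in male heads 1 to 5. Male pedicel 2 was far above the other male pedicels and still below every head. The log2 fold was -2.80 (SE 0.67, edgeR adjusted p = 5.2e-03) with all libraries and -4.03 (SE 0.21, adjusted p = 5.3e-08) without male pedicel 2.

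AAEL028907, second in male pedicels by mean CPM, divided the pedicels themselves. It stood at 5020, 3740, 102000, 261000 and 11000 CPM in male pedicels 1 to 5, and at 259, 2620, 1890, 2280 and 1220 CPM in male heads 1 to 5. Male pedicels 3 and 4 were far above the other 3, though all pedicels exceeded all heads. In male pedicel 4 it took 12.4% of the counts, more than AAEL018689 with 5.37%. Its log2 fold of 5.53 (SE 1.34, edgeR adjusted p = 5.9e-03) fell to 2.01 (adjusted p = 3.0e-02) without male pedicels 3 and 4, left out after seeing the data, and was 4.26 without male pedicel 4 alone. Without male pedicel 2 the log2 fold was 5.83. Over its alternatives the adjusted p of AAEL028907 ran from 2.3e-07 to 0.03.

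Those 2 libraries also stood apart in how many of their counts lay in identical-copy transcripts, that is, transcripts with the very values of a transcript under a different ID, so that their counts belong to no single gene. This share was 21.9% in male pedicel 3 and 35.2% in male pedicel 4, against 2.17% to 4.54% in the other 3 pedicels and 2.515% to 3.34% in male heads. It was 6.13% to 26.2% in female pedicels. Of the 394 marking genes, 39 (9.9%) had such a transcript, beside 1.34% of all genes tested. The 394 genes, chosen for being higher in pedicels, together held 11.1%, 6.15%, 44.3%, 65% and 15.7% of the counts of male pedicels 1 to 5. They held 0.626% to 1.9% of those of male heads. Most of the difference between pedicels lay in the 21 genes at or above 1000 CPM, 11 of which had an identical transcript. The remaining marking genes held 4.87%, 2.78%, 3.13%, 1.99% and 5.06% of the counts of male pedicels 1 to 5 and 0.365% to 0.419% in male heads. Without male pedicels 3 and 4 there were 350 marking and 342 low genes. With identical transcripts left out before summing there were 362 and 388.

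The genes low in the pedicel made up far more of the head's counts, a direction that is fixed by how they were chosen. The 382 genes held 27.3% to 30.7% of the counts of male heads. They held 2.18%, 12.5%, 1.36%, 0.73% and 2.41% of the counts of male pedicels 1 to 5, and AAEL006259 alone was a large part of both. Male pedicel 2 was again the high pedicel.

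Leaving out male pedicel 2 changed the call of some genes. Called higher in the head without it but not with it were 415 genes, and called higher in the pedicel 317. The reverse held for 53 and 141 genes. These counts include genes that passed the filter in 1 of the fits alone, since 10621 genes were tested in both. Among the 415 genes, AAEL024251 had the largest fold at 10 CPM or more. It stood at 0.847, 33.4, 1.99, 0.661 and 0.596 CPM in male pedicels 1 to 5, and at 30.1, 43.8, 31.9, 26.1 and 26 CPM in male heads 1 to 5. Male pedicel 2 exceeded 4 of the heads. The log2 fold was -1.98 (SE 0.94, edgeR adjusted p = 0.10) with all libraries and -4.95 (SE 0.31, adjusted p = 1.8e-07) without it. Over the alternatives to the fit of all libraries, the adjusted p of AAEL024251 ran from 1.8e-07 to 0.28. The lowest value is that of the fit without male pedicel 2, which is among those alternatives.

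AAEL009858 behaved alike, at 3.63, 147, 6.32, 6.28 and 3.93 CPM in male pedicels 1 to 5 and at 149, 168, 129, 122 and 132 CPM in male heads 1 to 5. Male pedicel 2 lay within the range of the heads. Its log2 fold was -2.04 (SE 0.99, edgeR adjusted p = 0.11) with all libraries and -4.86 (SE 0.20, adjusted p = 7.6e-09) without that library. The adjusted p of AAEL009858 over its alternatives ran from 7.6e-09 to 0.29, the lowest again being that of the fit without male pedicel 2.

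On the pedicel's side, AAEL028872 and AAEL013018 passed the filter on low counts only once male pedicel 2 was left out. In that fit AAEL028872 stood at 1.55, 32.3, 78.5 and 4.34 CPM in male pedicels 1, 3, 4 and 5, and at 0 to 1.09 CPM in male heads. It was high in male pedicels 3 and 4 and low in 1 and 5 (log2 fold 5.97, SE 1.27, edgeR adjusted p = 3.0e-03), and limma-voom did not call it (adjusted p = 0.16, within a range of 2.3e-06 to 0.16 over its alternatives). AAEL013018 stood at 0, 12.8, 13 and 18 CPM in the same pedicels and at 0 to 2.01 CPM in male heads. Its range overlapped with that of the heads because male pedicel 1 had no count (log2 fold 4.50, SE 1.21, adjusted p = 1.1e-02). With limma-voom the adjusted p of AAEL013018 was 0.39, within a range of 4.1e-04 to 0.39 over its alternatives.

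The female libraries, none of which entered the male fits, gave the same direction for nearly all marking genes that could be tested in them. In a fit of the 10 female libraries, 3559 of 10595 genes (33.6%) differed between pedicel and head. Of the 383 marking genes that could be tested, 360 (94%) were called higher in the female pedicel, beside 17.2% of all genes tested there. None (0) was called higher in the female head, with edgeR, DESeq2 or limma-voom, and the count was also 0 at an unadjusted p under 0.05. The median female log2 fold of these genes was 2.83, beside 0.05 for all genes tested in both sexes. Of the 440 genes chosen without male pedicel 2, 426 could be tested in females. Of those, 397 (93.2%) were called higher in the female pedicel. A gene low in heads can pass the filter on low counts through the female pedicel alone, which favours a call there. Part of the 94% may thus be fixed by the filter. The marking genes too low to be tested in females, AAEL027785 among them, are not in it. AAEL020342 was at 504 ± 104 CPM in pedicels of females, against 4.81 ± 1.83 CPM in their heads (SD, n = 5 each; log2 fold 6.70, edgeR adjusted p = 4.6e-08). AAEL012720 was at 134 ± 29.9 and 2.13 ± 0.94 CPM (log2 fold 5.96, adjusted p = 6.3e-08). The same limits applied to females gave 270 marking genes (2.55%), of which 185 were shared with males, 68.5% of the female and 47% of the male set.

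For genes low in the male pedicel, most that could be tested were called in the same direction in females. Of 381 that could be tested, 263 (69%) were called higher in the female head, beside 16.4% of all genes tested there, and 0 were called higher in the female pedicel with any of the 3 tools, also at an unadjusted p under 0.05. The median log2 fold was -1.06 in females and -2.55 in males, whose libraries chose these genes for a large fold, so nothing is read from the difference in size. Of the 553 genes chosen without male pedicel 2, 552 could be tested in females. Of those, 391 (70.8%) were called higher in the female head and 1 in the female pedicel. By the same limits edgeR called no gene low in the female pedicel (0 of 10595, and 1 at an unadjusted p under 0.05), nor did DESeq2 (0), while limma-voom called 7. Differences of 4-fold or more in favour of the female head were called for 9 genes. Head transcripts, measured on genes chosen for being low in male pedicels, stood at 36.8% to 73.3% in these female pedicels. Their part in the female folds was not tested. AAEL006259 was at 88500 ± 19700 CPM in pedicels of females and at 115000 ± 6300 CPM in their heads, and the log2 fold of -0.38 was not called (edgeR adjusted p = 0.28). AAEL009615, at 1120 ± 359 and 1490 ± 253 CPM, was not called either (log2 fold -0.42, adjusted p = 0.18). AAEL018183 was lower in the female pedicel, at 40.5 ± 15.5 against 84.4 ± 6.43 CPM (log2 fold -1.06, adjusted p = 6.2e-03).

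**Figure D5:**
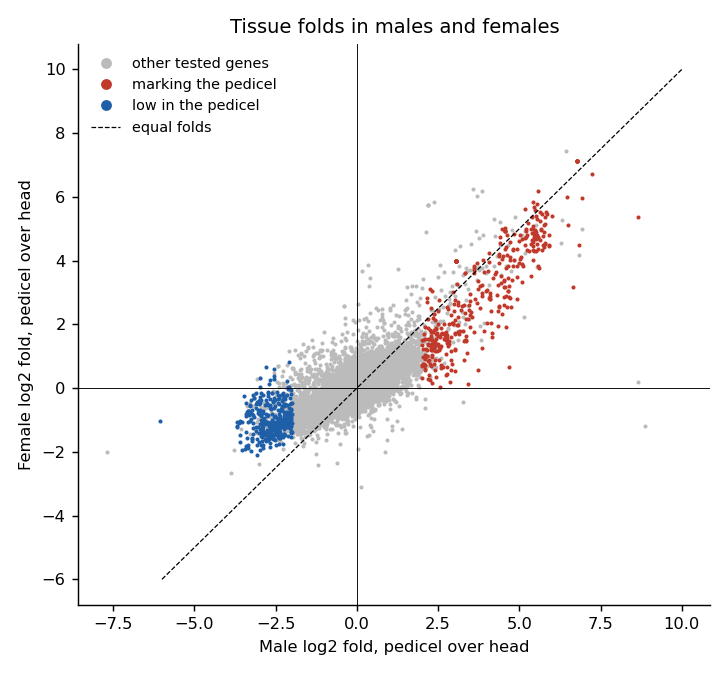
Female log2 fold (pedicel over head, 10 female libraries) against male log2 fold (10 male libraries) for each gene tested in both. Red genes mark the male pedicel, blue genes are low in it, grey genes are the others and the dashed line marks equal folds. Most red genes lie near or below the line, with a female median of 2.83, and most blue genes lie above it, with a female median of -1.06.

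Whether males and females differed in the tissue fold was tested over all 20 libraries, with an interaction term for sex by tissue. Of 11381 genes, 1352 (11.9%) had unequal folds, 735 (6.46%) with the larger pedicel over head fold in males and 617 (5.42%) with the smaller. Without male pedicel 2 these became 1104 and 1590. Of the 394 marking genes 145 were positive and 0 negative, and of the 382 low genes 0 were positive and 152 negative. The male libraries that chose these genes also enter this test, so nothing is read from these shares. For AAEL020342 the interaction log2 fold was 0.60 (SE 0.35, edgeR adjusted p = 0.28) and for AAEL012720 it was 1.00 (SE 0.41, adjusted p = 0.12). For AAEL018183 it was -2.48 (SE 0.67, adjusted p = 2.1e-02), for AAEL009615 -2.58 (SE 0.75, adjusted p = 3.1e-02) and for AAEL006259 -2.42 (SE 0.68, adjusted p = 2.5e-02). These 3 calls depended on the setting. The call was lost in 2 of 31 alternatives for AAEL018183 (adjusted p up to 0.22), in 14 of 31 for AAEL009615 (up to 0.24) and in 5 of 30 for AAEL006259 (up to 0.17). Without male pedicel 2 the interaction log2 fold was -3.88 for AAEL018183, -4.03 for AAEL009615 and -3.58 for AAEL006259.

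Among the marking genes, AAEL029085 and AAEL027785 had the most positive interaction. AAEL029085 stood at 37.8, 23.4, 47.9, 48.9 and 47.9 CPM in male pedicels 1 to 5 and at 0.942 to 1.97 CPM in male heads. In the female fit it averaged 3.36 ± 1.38 CPM in pedicels and 2.11 ± 2.05 CPM in heads, with overlapping libraries. Its male log2 fold was 4.70 (SE 0.26, edgeR adjusted p = 2.1e-07), its female one 0.66 (SE 0.54, adjusted p = 0.37), and the interaction 4.09 (SE 0.63, adjusted p = 4.3e-04).

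AAEL027785 stood at 34.4, 20.7, 20.6, 22.1 and 34.1 CPM in male pedicels 1 to 5 and at 0.538 to 2.22 CPM in male heads. In females it had at most 13 counts in any library and was too low to be tested. Its male log2 fold was 4.49 (SE 0.34, edgeR adjusted p = 1.9e-06) and the interaction 3.79 (SE 0.48, adjusted p = 6.9e-05). Male pedicel 2 was the lowest pedicel for AAEL029085 and within the range of the others for AAEL027785. Without that library the male log2 fold was 4.84 for AAEL029085 and 4.57 for AAEL027785.

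Among the genes low in the male pedicel, AAEL008401 and AAEL024981 had the most negative interaction, and for both the male head was the high group. AAEL008401 stood at 1.21, 5.45, 4.7, 11.9 and 6.43 CPM in male pedicels 1 to 5 and at 53.7, 14.4, 49, 36.5 and 38.7 CPM in male heads 1 to 5. In females it averaged 16 ± 10.5 CPM in pedicels and 10 ± 6.53 CPM in heads. The male log2 fold was -2.78 (SE 0.50, edgeR adjusted p = 1.0e-03), the female one 0.65 (SE 0.52, adjusted p = 0.35), and the interaction -3.40 (SE 0.77, adjusted p = 8.4e-03).

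AAEL024981 stood at 1.09, 1.39, 0.903, 0.991 and 0.477 CPM in male pedicels 1 to 5 and at 22.6, 18.5, 4.58, 10.3 and 4.5 CPM in male heads 1 to 5. Heads 1 and 2 were the highest, and no pedicel reached the lowest head. With all groups on the scale of the 20 libraries, it averaged 0.915 ± 0.296 CPM in male pedicels, 11.2 ± 7.61 in male heads, 0.545 ± 0.29 in female pedicels and 0.613 ± 0.324 in female heads (SD, n = 5 each). The male log2 fold was -3.60 (SE 0.56, edgeR adjusted p = 4.3e-04) and the interaction -3.36 (SE 0.85, adjusted p = 1.4e-02). The interaction call of AAEL024981 was lost with limma-voom (adjusted p = 0.18, the highest over its alternatives, with 1.8e-03 the lowest). For these 2 genes male pedicel 2 lay at or near the level of the other pedicels, unlike in AAEL018183, AAEL009615 and AAEL006259. Without that library the male log2 fold was -2.81 for AAEL008401 and -3.81 for AAEL024981.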

How the data were processed

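Per the labels' protocols, RNA was isolated with phenol-chloroform and a university gene research centre made the libraries. The submitters' processing notes list FastQC, HISAT2 and featureCounts, with no version, build or annotation. What tool made the fractional values is unknown here. The authors deposited estimated counts for each transcript, with no scaling between libraries, in 1 column per library, which the sample descriptions tie to the labels. They were added up per gene ID (34477 transcripts, 19804 IDs) and rounded. In the male fit 10637 IDs passed edgeR's filterByExpr and 9167 were left out.

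The test was edgeR 4.0.16 (R 4.3.3): TMM, glmQLFit with robust estimates and glmQLFTest, a mean per group, and Benjamini-Hochberg adjustment over all genes tested. A standard error is |log2 fold| over the root of edgeR's F. Alternatives used DESeq2 1.42.0 and limma 3.58.1. The fits were tested on simulated data. Identical transcripts had equal values to 3 decimals in all libraries and a maximum above 5. Low counts limit precision by counting error.

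The comparison, its classes and the rules were chosen with earlier results of these data known. The rule for named genes ranked genes called with and without male pedicel 2, with 10 CPM or more where higher and without identical transcripts, by the gap between the nearest libraries with 0.5 CPM added and male pedicel 2 left out. It then took the called genes with the most CPM in each tissue, the largest folds among calls that change without male pedicel 2, and the largest interactions among marking and low genes, each limited to 2 IDs a direction because no ID has a name. Gene lists and tissue markers need names and were not analysed here.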

Additional observations from a re-analysis of the deposited data

Results flagged for a closer look

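Male pedicel 2 lay outside the spread of the other 4 male pedicels in several measures, each by a gap to the nearest library that was large against the range of the group. It was highest in the level of head transcripts, at 35.85% of the head mean, and in the share of counts held by the 382 genes low in the pedicel, at 12.49%. It was lowest in the level of pedicel transcripts, at 53.47% of the mean of the other 4 male pedicels, a base that differs between male pedicels. It was also the high outlier among male pedicels for AAEL018183 at 24.3 CPM, AAEL009615 at 785 CPM, AAEL006259 at 59400 CPM, AAEL024251 at 33.4 CPM and AAEL009858 at 147 CPM. Of these genes, AAEL018183 and AAEL009615 were ranked with male pedicel 2 left out, and AAEL024251 and AAEL009858 were named because their call changes without it, so the choice itself favours such gaps and they are no independent sign. Male head 2 was the high outlier among male heads for AAEL013018, at 2.01 CPM. Chance alone flags about 1 in 20 groups by this rule, and these genes share libraries.

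The tissue fold differed between males and females, by the interaction test in edgeR over 20 libraries, for 7 of the named genes. The interaction log2 fold was 4.09 for AAEL029085 and 3.79 for AAEL027785, both with the larger fold in males, and both were called in 31 of 31 alternatives. It was -2.48 for AAEL018183, -2.58 for AAEL009615, -2.42 for AAEL006259, -3.40 for AAEL008401 and -3.36 for AAEL024981. The call was lost in 14 of 31 alternatives for AAEL009615, 5 of 30 for AAEL006259, 3 of 31 for AAEL024981, 2 of 31 for AAEL018183 and 0 of 31 for AAEL008401. With male pedicel 2 left out, the fold was -3.88 for AAEL018183, -4.03 for AAEL009615 and -3.58 for AAEL006259. AAEL029085, AAEL027785, AAEL008401 and AAEL024981 had been named for a large interaction. Head transcripts stood at 36.8% to 73.3% in female pedicels and 4.38% to 35.9% in male ones, on genes chosen for being low in male pedicels. Their part in these differences was not tested.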

How the results depend on the processing

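With all 10 male libraries, the counts of called, 4-fold, marking and low genes for male pedicel against male head stayed within 1.5 times its value under the alternatives listed for it, with 3 exceptions. Library totals alone called 3291 genes, 1199 of them higher in the pedicel, and without a filter on low counts 1150 genes were at least 4-fold higher in the pedicel. Without male pedicel 2, alternatives chosen after seeing the data gave 3860 and 1305 with library totals and 1287 without a filter. Each of the 13 named genes tested with all libraries kept its direction, and the call changed for AAEL024251 and AAEL009858 alone, which were called in 5 of 22 alternatives. Without male pedicel 2 the call was lost in 1 of 21 for AAEL018689 and AAEL024981, 2 of 21 for AAEL028872 and 4 of 20 for AAEL013018. DESeq2 gave no adjusted p for 105 genes, 5 of them named. Leaving out 1 library gave 4730 to 5891 calls, 376 to 440 marking genes and 329 to 553 low genes, the last highest without male pedicel 2.

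Replicate numbers were shared between groups, but the labels do not say that a number marks shared animals, so the numbers were not taken as pairs. Same-numbered male pedicels and heads deviated together with correlations of -0.031 to 0.358, and 2 of 5 pedicels correlated best with their own number. With so few libraries these values cannot decide whether the numbers mark pairs. With the replicate block, 5508 genes were called in males, 391 marking and 435 low. In females the block gave 14 genes at least 4-fold higher in the head and 4 low in the pedicel.

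In the female fit, library totals gave 681 higher in the pedicel, 4247 higher in the head, 93 at least 4-fold higher in the head and 64 low in the pedicel. TMM without the 20 most abundant genes gave 4 low genes. Without a filter, 874 and 20 genes were at least 4-fold higher in pedicel and head, and 3 were low. Limma-voom gave 25 and 7, and 29 and 6 with library weights, for the last 2 of these. At an adjusted p under 0.01 there were 1865 calls, 1007 higher in the pedicel, 858 in the head and 4 at 4-fold there. Leaving out 1 female library gave 7 to 21 such genes and 0 to 7 low genes.

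The interaction moved most. Library totals gave 426 calls (299 positive, 127 negative), library weights 3245 (1404, 1841) and an adjusted p under 0.01 497 (350, 147). Leaving out 1 library gave 911 to 2694 calls, 535 to 1104 positive and 376 to 1590 negative. All were highest without male pedicel 2 and lowest without male pedicel 1, and the 376 was also reached without male pedicel 5. For the female level of head transcripts, sets of 200 genes gave 53.1% in female pedicel 1, 47% in 4 and 46.1% in 5, and the ratio of summed CPM gave 96.1% in 1 and 54.8% in 2. The cause of these changes was not tested. Depth limits genes near the filter.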
